A study of Caenorhabditis elegans with 2 samples.

Results

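The 8 genes described here decide whether a Caenorhabditis elegans embryo develops as a male or a hermaphrodite, and set the output of its X chromosomes to match. They are xol-1, sex-1, sdc-1 and sdc-2 on X, sdc-3, her-1 and dpy-21 on V, and dpy-27 on III, which is 8 of the 19973 protein-coding genes annotated on the nuclear chromosomes. They were taken by name from the WBcel235 annotation, with earlier results of these data known. For each gene, a peak was counted when its summit lay in the gene body or within 5000 bp upstream of the annotated 5′ end, and this stretch is called the window of the gene. Only xol-1 had a peak in the authors' thresholded list, and it lay 4902 bp upstream, at a pair of matches to GCGCAGGG. This is the core of the motif that recruits the dosage compensation complex to X, and the full motif was not scored.

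ChIP-seq, the sequencing of DNA that comes down with a chosen protein, was done on whole L3 larvae labelled as pooled male and female, with the age given as unknown. Both samples came from strain OP236, which carries unc-119(ed3) on chromosome III and the insertion wgIs236, and the protein followed was ZTF-11 fused to eGFP, a green fluorescent tag. ZTF-11 is a zinc finger protein of the Myt1 family, known in the worm for its part in neurogenesis. The labels give ztf-11 as the antibody, so whether the tag or the protein itself was recognised cannot be told from them. The samples are 2 biological replicates of 1 group, and no untagged strain or other stage was analysed here. Because whole animals were used, a peak cannot be assigned to a cell type, and one present in a few cells cannot be told apart from one that is weak in many.

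Sex in this worm is set by the ratio of X chromosomes to autosomes. X-borne signal elements such as sex-1 repress xol-1, the switch gene, while autosomal elements such as sea-1 raise it. Where xol-1 is silent, sdc-2 acts with sdc-1 and sdc-3 to bring a condensin complex that includes DPY-27 to recruitment sites on both X chromosomes of the hermaphrodite, which lowers X expression, and to silence the male-promoting gene her-1. GCGCAGGG is the core of the motif found at those recruitment sites, and AAGTTT is the core bound by Myt1-family zinc fingers.

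The peak upstream of xol-1 is shown first because it is the strongest one at any of the 8 genes. Its sequence, on the forward strand of WBcel235 (the same assembly as ce11), was read from the RefSeq genome at chrX:8036311-8036610, and takes in the summits of both replicates. The second sequence is the one other match to the recruitment core in the windows, in an intron of her-1 at chrV:9698961-9699028. The third surrounds the strongest peak of sex-1, at chrX:10208106-10208206, which has no match to either motif. Capitals mark GCGCAGGG, or its reverse complement CCCTGCGC, and AAGTTT.
xol-1 peak: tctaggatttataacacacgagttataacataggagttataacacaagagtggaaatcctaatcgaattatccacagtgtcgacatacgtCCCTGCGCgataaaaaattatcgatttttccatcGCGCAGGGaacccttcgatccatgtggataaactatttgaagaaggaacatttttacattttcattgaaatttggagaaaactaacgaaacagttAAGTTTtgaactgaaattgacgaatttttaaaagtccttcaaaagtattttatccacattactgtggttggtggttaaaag
her-1 element: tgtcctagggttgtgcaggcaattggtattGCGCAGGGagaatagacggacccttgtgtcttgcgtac
sex-1 peak: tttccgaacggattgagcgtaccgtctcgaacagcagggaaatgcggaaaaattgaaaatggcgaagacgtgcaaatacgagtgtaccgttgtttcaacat

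The lists differed widely in length, which sets how a peak in each can be read. Replicate 1 held 30000 peaks, replicate 2 held 2036, the pooled list 631 and the thresholded list 96. The pooled list is labelled as peaks and background, so an entry called a peak here need not be a bound site. Of all protein-coding genes, 88.3% had a replicate 1 peak in their window, 14.9% a replicate 2 peak, 5.01% a pooled peak and 0.631% a thresholded peak. Peaks are ranked by the signal score of the authors' peak caller within their own list, with rank 1 the strongest, and scores are not compared between lists. The numbers of reads are not given in the files, so depth is unknown.

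All 8 genes had a replicate 1 peak, and together they held 41 such peaks. With 88.3% of all genes having one, this count says little about these genes. Apart from the strongest xol-1 peak, at 2.16, the deposited -log10 q-values of these 41 peaks lay between 0.129 and 1.22. Lower values mean weaker evidence for a peak, so many of them may be background. In replicate 2, xol-1 and her-1 had 1 peak each, so 2 of 8 genes had one, against 14.9% of all genes. In the pooled and in the thresholded list xol-1 had 1 peak and the other 7 genes had 0. With numbers this small no share of the 8 genes can be set apart from the share over all genes, and no test was made.

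**Figure D1:**
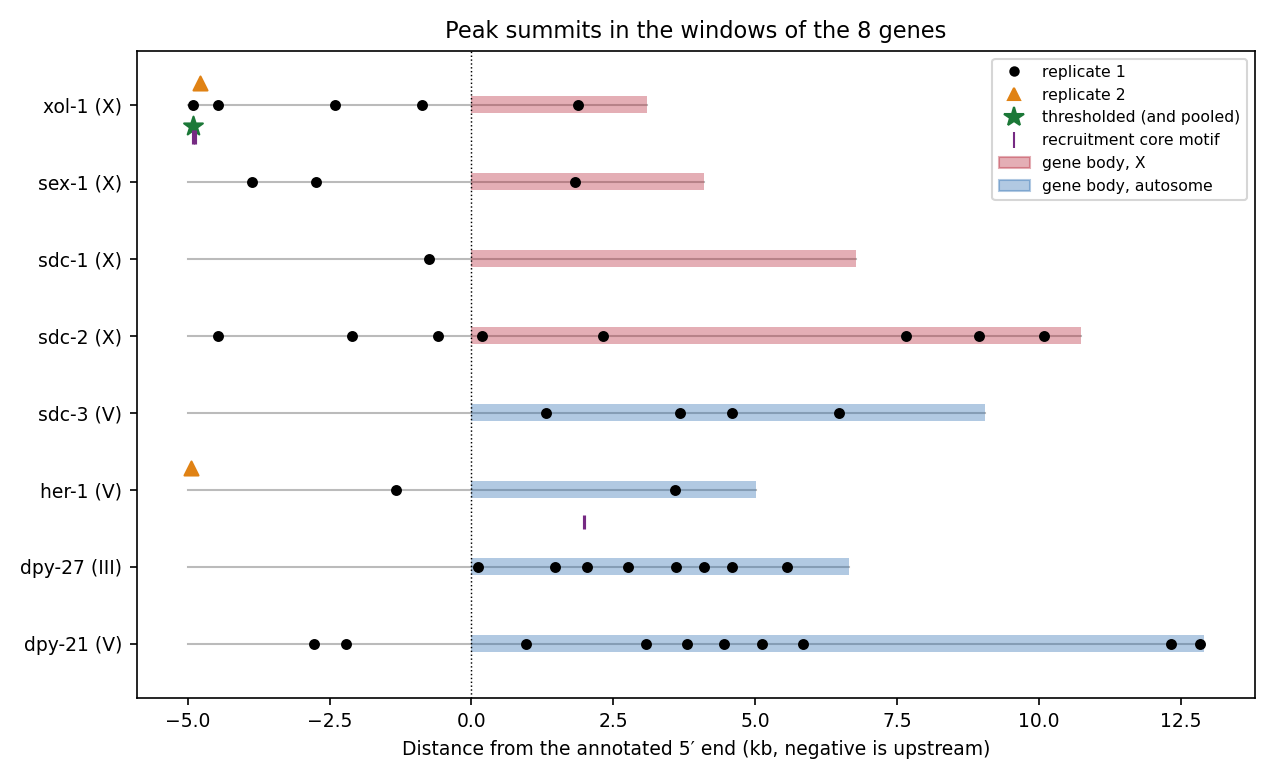
Summits in the window of each gene, by distance from the annotated 5′ end in kb (negative is upstream). Bars are gene bodies on X (red) and autosomes (blue), circles are replicate 1 summits, triangles replicate 2, the star the peak in the thresholded and pooled lists, and vertical ticks matches to the recruitment core. Only at xol-1, 4902 bp upstream, do peaks of all lists coincide.

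At the top of the pathway, xol-1 (WBGene00006962, chrX:8041313-8044409, forward strand) encodes a protein of the GHMP kinase family that directs male development. Replicate 1 had 5 peaks in its window and replicate 2 had 1. The strongest replicate 1 peak, at chrX:8036251-8036570, had a signal score of 33.2 and rank 19 of 30000. The replicate 2 peak, at chrX:8036340-8036699, had a score of 48.4 and rank 34 of 2036. These peaks overlapped by 231 bp, with summits 109 bp apart, so the same place was among the strongest of each library. In the pooled and thresholded lists the peak lay at chrX:8036251-8036570 with a score of 72.2 and rank 31.

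By the authors' -log10 q-value the xol-1 peak shared the highest value of its list in both replicates, 2.16 in replicate 1, where 73 peaks had it, and 1.98 in replicate 2, where 48 did. In the pooled and thresholded lists its value was 1.31, against a highest value of 1.65. In the thresholded list 32.3% of peaks ranked as high as xol-1 or higher by signal score. Among X genes, 0.403% had a replicate 1 peak of rank 19 or better in their window. Neighbouring genes can share a peak, so these are not all separate peaks.

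The xol-1 peak lay in the middle of a long stretch without protein-coding genes. The next protein-coding gene upstream, C34D10.1, ends 9698 bp before the start of xol-1. The summit lay 4797 bp from that end and 4902 bp from the 5′ end of xol-1. The nearest 5′ end of a protein-coding gene was that of xol-1, and no annotated gene lay at the summit. Genes for non-coding RNAs do lie within the stretch. The wider replicate 2 peak reached the ncRNA gene C18A11.13 and the tRNA gene WBGene00022939, whose 5′ ends were 154 and 237 bp from its summit. Summits of other replicate 1 peaks lay 872 bp upstream (rank 2326), 4470 bp upstream (rank 8740), 2404 bp upstream (rank 9039) and 1881 bp into the gene (rank 22502). The rank 8740 peak also overlapped the replicate 2 peak, and the other 3 overlapped no peak of another list.

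The xol-1 summit lay close to the outer edge of the window, at 4902 of 5000 bp. With 1000 or 2000 bp of upstream sequence in place of 5000, none of the 8 genes had a peak in replicate 2 or in the pooled or thresholded list. The edge falls in empty sequence at xol-1, since no list had a summit between 5000 and 6000 bp upstream of it. Just outside the window of sdc-2 lay a replicate 1 peak of score 16 and rank 1395, with its summit 5154 bp upstream. Another lay 5482 bp upstream of sex-1, with score 9.87 and rank 11047.

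The matches to the recruitment core at xol-1 are an inverted pair. The first lies at chrX:8036401-8036408 on the reverse strand and the second at chrX:8036435-8036442 on the forward strand, with 26 bases between them. They were 7 and 27 bp from the replicate 1 summit, and 116 and 82 bp from the replicate 2 summit. X held 81 matches to GCGCAGGG in all, 4.57 per Mb against 2.82 per Mb on the autosomes. Only 1 inverted pair with 50 or fewer bases between the matches was found on X, that at xol-1, and 1 on the autosomes, which no peak of any list covered.

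Matches near summits were uncommon over the lists as a whole. Within 100 bp of the summit, 18 of the 5797 replicate 1 peaks on X had the core (0.311%, exact Clopper-Pearson 95% confidence interval 0.184 to 0.49), against 0.0851% of 201 bp tiles of X. Among the 28 X peaks of replicate 1 with rank 100 or better, 8 had it (28.6%, interval 13.2 to 48.7), and in replicate 2 it was 9 of 23 (39.1%, interval 19.7 to 61.5). Of the 33 thresholded X peaks 10 had at least 1 match and 3 had at least 2, the xol-1 peak being one of the 3. On the autosomes 16 of 24203 replicate 1 summits had the core (0.0661%), against 0.0553% of 201 bp tiles. With rank 100 or better it was 1 of 72 autosomal peaks in replicate 1 and 0 of 48 in replicate 2. Of the 40 thresholded autosomal peaks, 1 had it. The intervals cover counting error only. A match is a description of the sequence and does not show which protein was present.

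AAGTTT was absent within 100 bp of the replicate 1 summit of the xol-1 peak and present at 1 place within 100 bp of the replicate 2 summit. Over both strands, 11 of the 41 replicate 1 summits of the 8 genes had it, 5 of 17 on X and 6 of 24 on autosomes. All replicate 1 summits had it at 23.9% on X and 22.9% on the autosomes, and 201 bp tiles of these sequences at 34.1% and 32.5%. The replicate 1 summits of the 8 genes thus sat near the values of their list for this sequence. In replicate 2 the shares over all summits were higher, at 37% on X and 34% on the autosomes. Matches to AAGTTT and GCGCAGGG cannot share bases, on either strand.

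The X signal element sex-1 (WBGene00004786, chrX:10201329-10205421, reverse strand), encodes a nuclear hormone receptor that represses xol-1. It had 3 peaks in replicate 1 and 0 in the other lists. The strongest had a score of 15.3 and rank 1781, with its summit 2735 bp upstream. The next lay in an intron 1823 bp from the 5′ end (score 13.3, rank 3558), and the last 3869 bp upstream (rank 17094). Of all X genes, 17% had a replicate 1 peak as strong as the best of sex-1.

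The sdc genes encode the proteins that mark X for repression in the hermaphrodite. For sdc-1 (WBGene00004745, chrX:16275763-16282534, forward strand), a zinc finger gene, replicate 1 had 1 peak, 755 bp upstream, with a score of 9.39 and rank 12763. It was the gene with the fewest peaks of the 8, at 0.0849 peaks per kb of window, and 9.19% of X genes had a lower density. The window of sdc-2 (WBGene00004746, chrX:11522707-11533450, forward strand), the gene that triggers assembly on X, held 8 replicate 1 peaks. Their ranks ran from 6796 to 27797, and the strongest was thus weaker than the best peak of sex-1.

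The best sdc-2 peak, with a score of 11.4, lay in an intron 2321 bp from the 5′ end, where the antisense RNA gene anr-16 is also annotated. Upstream peaks lay at 591, 2109 and 4474 bp, and the last of these was in a coding exon of the neighbour hpo-34. On chromosome V, sdc-3 (WBGene00004747, chrV:15039148-15048207, reverse strand), another zinc finger gene, had 4 replicate 1 peaks, all in its coding exons and none upstream. The strongest had a score of 14.6 and rank 2302, 4593 bp from the 5′ end, and the second had rank 4330. None of the 3 sdc genes had a peak in replicate 2 or in the pooled or thresholded list.

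The target of the sdc genes, her-1 (WBGene00001842, chrV:9697015-9702035, forward strand), encodes a secreted ligand that promotes male fate by binding the receptor TRA-2. The best of its 2 replicate 1 peaks had the weakest score among the best peaks of the 8 genes. The 2 scores were 9.2 (rank 13548, 1338 bp upstream) and 7.59 (rank 21439, in an intron 3589 bp from the 5′ end). The replicate 2 peak had a score of 16.7, a -log10 q-value of only 0.0622 and rank 937 of 2036, at chrV:9691890-9692249. It overlapped no replicate 1 peak, and its summit lay 4945 bp upstream, in a coding exon of ztf-9 and 89 bp from the 5′ end of that gene. The gene ZK287.7 lies between this summit and her-1. When the upstream window was ended at the nearest upstream protein-coding gene, her-1 had no replicate 2 peak.

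The match to the recruitment core in her-1 lay at chrV:9698991-9698998, in an intron 1979 bp from the 5′ end. The nearest replicate 1 summit was 1610 bp away and had rank 21439, and the nearest replicate 2 summit was 6924 bp away. Of the 8 windows, those of xol-1 and her-1 held the core. Over all genes, 3.3% of windows on X and 2.14% on autosomes did.

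In the dosage compensation machinery, dpy-27 (WBGene00001086, chrIII:3813018-3819679, reverse strand) encodes an SMC subunit of the condensin on X. It had 8 replicate 1 peaks, all in coding exons, with scores from 6.65 to 13.8. The strongest had rank 3058 and lay 2764 bp from the 5′ end. At 0.686 peaks per kb it had the highest density of the 8, and 93.9% of autosomal genes had a lower one. dpy-21 (WBGene00001080, chrV:17936282-17949193, reverse strand) encodes a histone demethylase that acts on H4K20 on X.

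The 10 replicate 1 peaks of dpy-21 were the most at any of the 8 genes, in the longest window. Their ranks ran from 8662 to 26046 and the best score was 10.6. Of these peaks 2 lay upstream, at 2214 and 2776 bp, close to the small gene Y59A8B.24. Neither dpy-27 nor dpy-21 had a peak in the other lists. Over all autosomal peaks of replicate 1, 3.07% between ranks 1000 and 4000 and 1.98% below rank 4000 were found in replicate 2, so the lack of one at these genes is near the background.

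**Figure D2:**
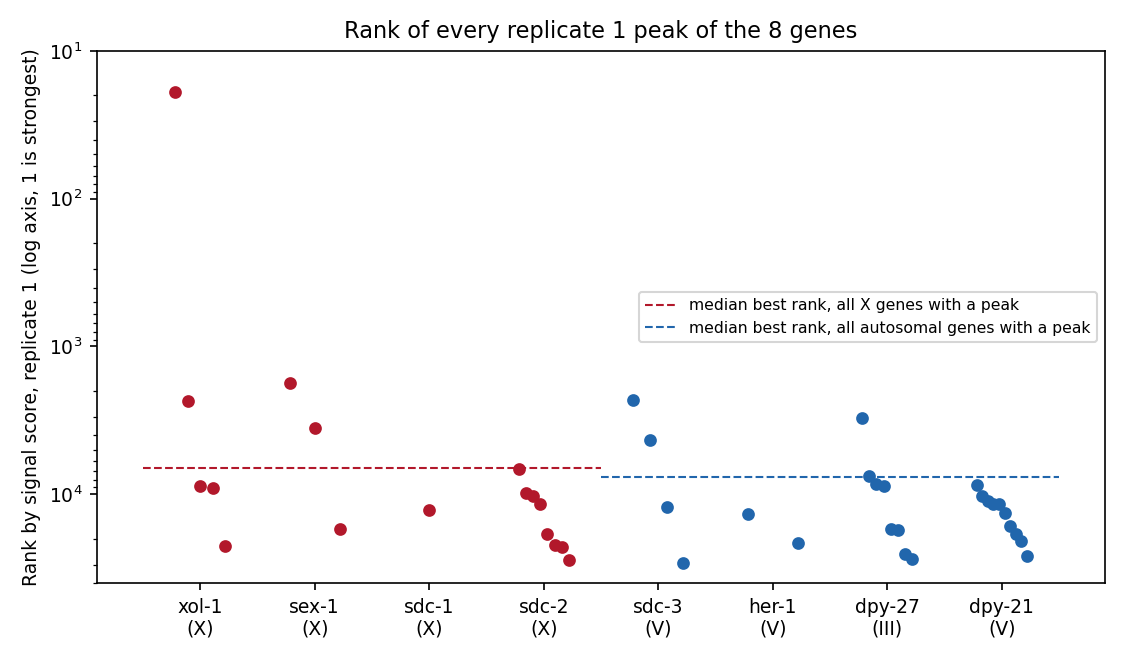
Rank by signal score, on a log axis, of each of the 41 replicate 1 peaks in the windows of the 8 genes, on X (red) and autosomes (blue). Dashed lines are the medians of the best rank over all genes with a peak, 6617 on X and 7646 on autosomes. The xol-1 peak at rank 19 is the only one stronger than rank 1000.

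In order of their strongest replicate 1 peak the genes were xol-1, sex-1, sdc-3, dpy-27, sdc-2, dpy-21, sdc-1 and her-1. Between xol-1 and sex-1 the rank went from 19 to 1781, and the others followed down to 13548. The order below xol-1 has no replicate behind it, since the best replicate 1 peaks of the other 7 genes overlapped no replicate 2 peak. Of the 41 peaks, 1 had a rank of 1000 or better, 4 had 3000 or better, and 16 ranked below 15000. The median of the best ranks was 4927 over the 8 genes, against 7468 over all genes with a peak. The windows of the 8 genes were longer, with a median of 11.7 kb against 7.03 kb and a median of 4.5 peaks against 2, and a longer window gives more peaks from which the best is taken.

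Agreement between the replicates at these genes came down to xol-1. Among the 41 peaks of replicate 1, 2 shared bases with a peak of replicate 2, both at xol-1 and with the same one. Over the whole replicate 1 list 2.39% did so. The share depended on strength, at 33% for the 100 strongest peaks, 7.78% for the rest of the 1000 strongest, 3.1% from there to rank 4000 and 2% below. Among the 100 strongest it was 53.6% for peaks on X, as at xol-1, and 25% for autosomal peaks. Of the 8 genes' peaks, 5 lay between ranks 1000 and 4000, and 0 of them were found in replicate 2. With a share of 3.1% over all peaks of that strength, a count of 0 among 5 is near the background.

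The genes on X and those on autosomes were then set side by side. Each class had 4 of 4 genes with a replicate 1 peak, against 91.1% of all X genes and 87.9% of all autosomal genes. In replicate 2 each had 1 of 4, against 14.3% and 15%. In the pooled list X had 1 of 4 and the autosomes 0 of 4, against 6.01% and 4.85%, and in the thresholded list the same counts stood against 1.28% and 0.528%. The difference between the classes in these lists is thus 1 peak, that of xol-1.

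Of the replicate 1 peaks, 58.8% at the X genes and 12.5% at the autosomal genes lay upstream, against 52.4% over all X genes and 58.5% over all autosomal genes. These shares also depend on how much of a window is upstream, so they are not directly comparable. The windows held 20 kb upstream and 24.7 kb of body at the X genes, and 20 and 33.7 kb at the autosomal genes. Over all genes these were 13655 and 10061 kb on X, and 86210 and 54378 kb on autosomes. Peaks per kb take this into account. X genes held 17 peaks in 44.7 kb of window (0.38 per kb) and autosomal genes 24 in 53.7 kb (0.447 per kb), against 0.343 and 0.313 per kb over all windows of each class, where a peak counts for every gene whose window holds it. The share of the 41 peaks at X genes was 41.5% (exact Clopper-Pearson 95% confidence interval 26.3 to 57.9, counting error only), and X genes made up 45.5% of the window length. Upstream sequence of the X genes held 10 peaks in 20 kb (0.5 per kb) and that of the autosomal genes 3 in 20 kb (0.15 per kb). All genes had 0.312 per kb upstream on X and 0.299 on the autosomes.

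In gene bodies the order was the other way round. X genes held 7 peaks, or 0.283 per kb, and autosomal genes 21, or 0.624 per kb, while all genes had 0.385 and 0.336 per kb. Coding exons held 17 of the 24 autosomal summits and 4 of the 17 on X. Of all replicate 1 summits, 43.9% on autosomes and 33.8% on X lay in coding exons, which make up 25.6% and 20% of these sequences. Those shares also take in summits outside gene windows, so they are not directly comparable with the counts at the 8 genes. The 8 bodies and upstream stretches are few, and dpy-27 and dpy-21 alone gave 16 of the 21 autosomal body peaks, so these values describe these genes and were not tested.

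**Figure D3:**
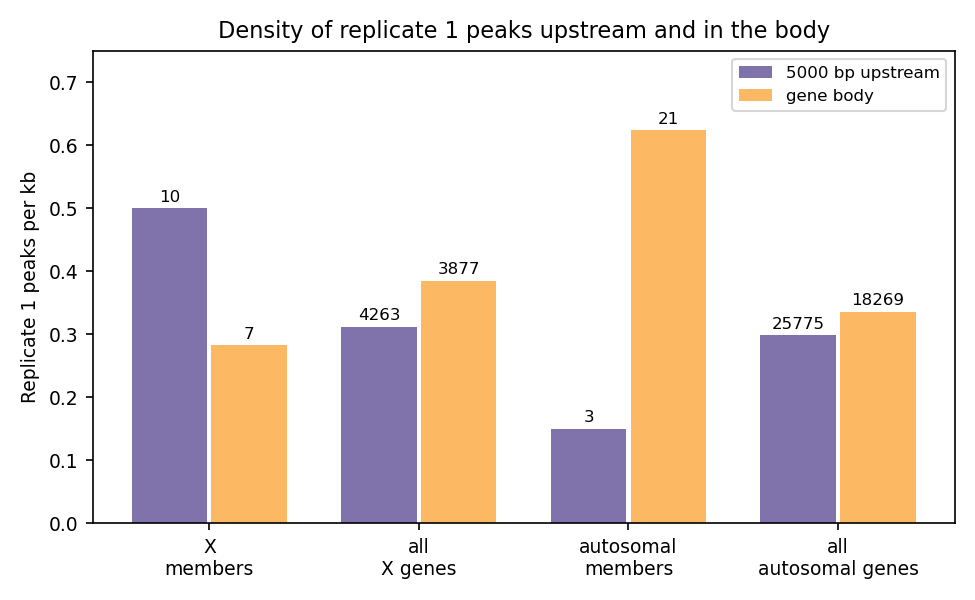
Replicate 1 peaks per kb in the 5000 bp upstream (purple) and in the gene body (orange), for the 4 X genes, the 4 autosomal genes and all protein-coding genes of each class, with the number of peaks over each bar. The X genes stood at 0.5 upstream and 0.283 in the body, the autosomal genes at 0.15 and 0.624.

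Base composition near the summits moved with this difference. The median GC content within 100 bp of the summit was 38.8% at the 17 X summits (range 27.4 to 43.3) and 44.5% at the 24 autosomal summits (range 28.4 to 59.7). Over all replicate 1 summits it was 40.3% on X and 40.8% on autosomes. Its part in the placement of the peaks was not tested.

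The other 25 genes of the pathways, taken by role from a fixed list, were examined in the same windows. Of these, 24 had a replicate 1 peak (88.3% of all genes), 6 a replicate 2 peak (14.9%), 5 a pooled peak (5.01%) and 2 a thresholded peak (0.631%). The single gene without any was fog-2, which acts in germline sex determination. The windows of the 25 genes were longer, with a median of 10.3 kb against 7.03 kb over all genes. Per kb of window they held 0.271 replicate 1 peaks, against 0.318 over all genes. In the other lists it was 0.0396 against 0.0203 (replicate 2), 0.0198 against 0.00651 (pooled) and 0.0066 against 0.000773 (thresholded). These values rest on few peaks and were not tested. Among the X signal elements fox-1 and ceh-39, 0 of 2 had a peak beyond replicate 1. Of the autosomal signal elements, sea-1 had a replicate 2 peak of score 17.1 and rank 805 and a pooled peak of rank 468, 7 and 8 bp inside its 5′ end. Their -log10 q-values were low, at 0.0843 and 0.0704. Both overlapped a replicate 1 peak of rank 8746, and sea-2 had peaks in replicate 1 only.

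Among 12 sex determination genes, 2 had a replicate 2 peak and 2 a pooled peak. The receptor gene tra-2 had 3 replicate 2 peaks. The strongest had rank 374, 2737 bp upstream, and its pooled counterpart rank 332, both within C15F1.5 and over the snRNA gene sup-39. The other 2 lay in introns at ranks 886 and 1900. In tra-1, the gene for the terminal transcription factor of the pathway, a replicate 2 peak of rank 924 lay in an intron 4280 bp from the 5′ end and overlapped no replicate 1 peak. The RNA-binding protein gene sup-26 had a pooled peak of rank 269, 1953 bp upstream, which overlapped the replicate 1 peak of rank 70 and no replicate 2 peak. Among the 4 targets of tra-1, mab-3 had a replicate 2 peak of rank 1527, 3298 bp upstream, which overlapped the replicate 1 peak of rank 3204. All replicate 2 and pooled peaks at tra-2, tra-1, sup-26 and mab-3 had -log10 q-values of 0.24 or less. The highest values of those lists were 1.98 and 1.65.

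Among the 5 other dosage compensation genes, the 2 thresholded peaks lay at the condensin subunit genes dpy-28 and mix-1. The dpy-28 window held the peak at chrIII:10759084-10759403, of rank 23 in the thresholded list, rank 3 in replicate 1 and rank 51 in replicate 2. That summit was 3887 bp upstream of dpy-28 and 63 bp upstream of another gene, tasp-1. A second dpy-28 peak, 17 bp upstream of its own 5′ end, had rank 138 in replicate 2 and 364 in the pooled list and was not in replicate 1. Its -log10 q-values were 0.462 and 0.16. The third, in an intron of tasp-1, had rank 683 in replicate 2, with a value of 0.106.

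The mix-1 peak at chrII:10840047-10840366 had rank 71 in the thresholded list, 208 in replicate 1 and 108 in replicate 2. The thresholded summit lay in a coding exon 15961 bp from the 5′ end, and the peak reached the snoRNA gene M106.6. The replicate 1 summit lay in an intron, within M106.6. Weaker replicate 2 peaks lay in mix-1 introns at ranks 936 and 1460, with -log10 q-values of 0.0618 and 0.0286. Unlike the xol-1 peak, those of dpy-28 and mix-1 had no match to the recruitment core within 100 bp of their summits. The remaining dosage compensation genes dpy-26, dpy-30 and capg-1 had replicate 1 peaks only, with best ranks of 11296, 7666 and 4018.

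**Figure D4:**
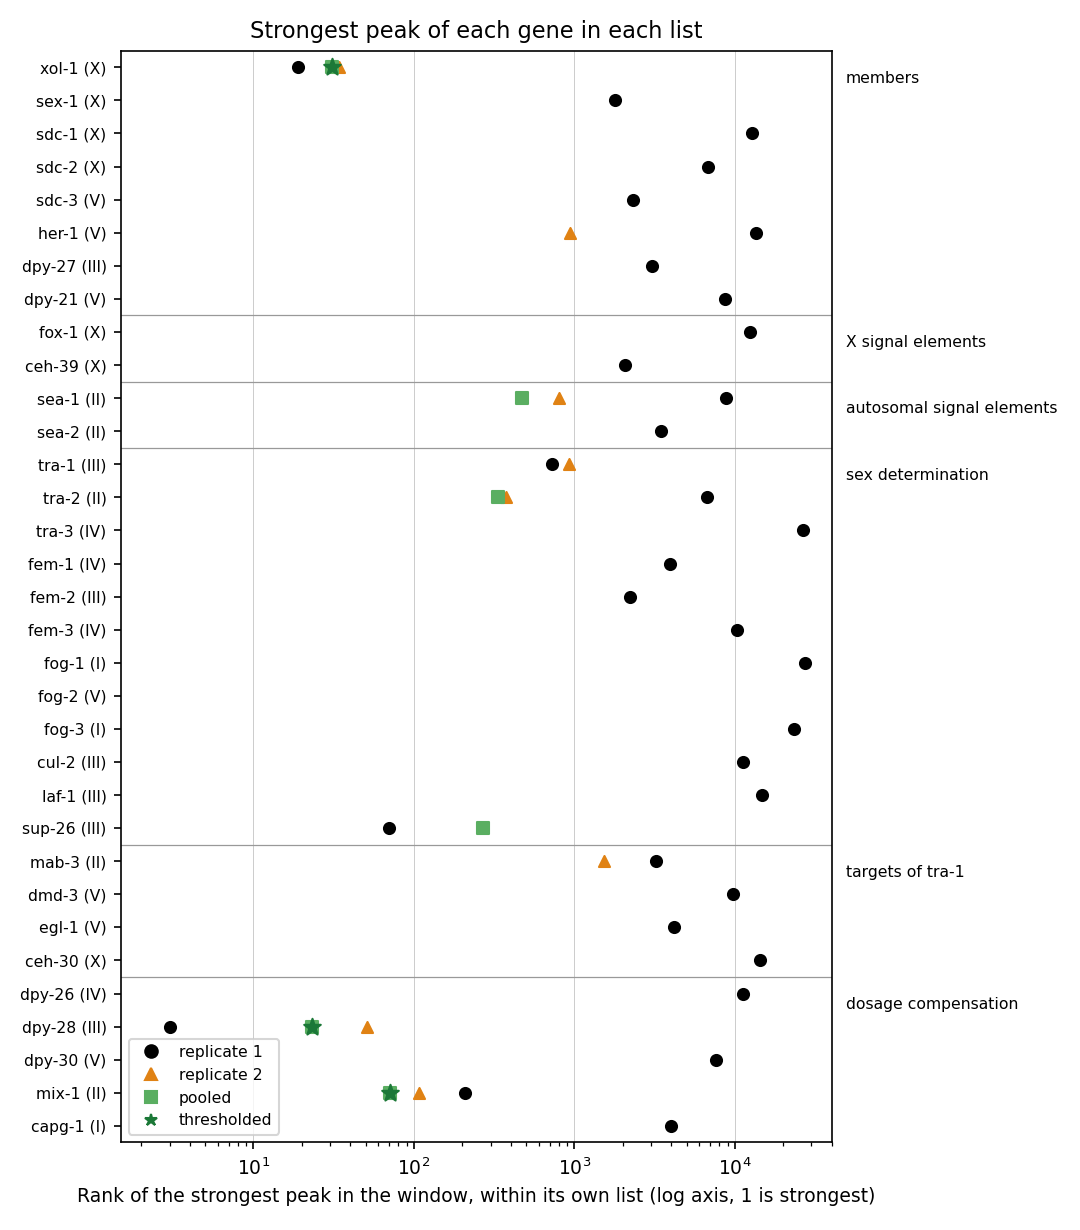
Rank of the strongest peak in the window of each of the 8 genes (members) and of the 25 other pathway genes, within each list, on a log axis with 1 the strongest. Circles are replicate 1, triangles replicate 2, squares pooled and stars thresholded. Stars stand at xol-1 (31), dpy-28 (23) and mix-1 (71).

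Genes with a thresholded peak were then ordered by how closely its ranks matched those at xol-1. Likeness was the sum of the absolute differences in log10 rank over the thresholded, replicate 1 and replicate 2 lists, among 105 genes with such a peak found in both replicates. F22H10.3 on X came first at 0.19, with ranks 35, 24 and 37 and its summit 4391 bp upstream. F19H6.4 and nspc-14 on X followed at 0.40 by 1 shared peak with ranks 44, 15 and 48. On chromosome I, egg-5, known for its part in egg activation, and rpn-8, a proteasome subunit gene, came next at 0.47, also by 1 shared peak, with ranks 26, 8 and 33. These 5 genes thus stand for 3 peaks, and this likeness rests on 2 samples.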

How the data were processed

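Peak lists on ce11 were used as deposited. Per the labels' text records, the authors derived 1 list from each replicate with a control, 1 from both replicates pooled, and the thresholded list from these 3. Not given in the sources used here: the peak caller, aligner, filters and threshold. Each peak has a deposited signal score, on a scale not given, and a deposited -log10 q-value. The labels give a library size range of 150 to 350. ce10 lists were not used here.

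Genes came from the Ensembl 115 annotation of WBcel235, the assembly of ce11, and sequences from the RefSeq genome of that assembly. Coordinates are 1-based. Where a gene is trans-spliced, its annotated 5′ end may be some way inside the transcribed region. Summits were assigned to windows, ranked by signal score with ties given the better rank, and matched between lists by an overlap of 1 bp or more, in Python 3.11.15 with numpy 2.4.6, pandas 2.3.3 and scipy 1.17.1. The scripts were tested on simulated data. No p-values were computed, since the design has 2 replicates of 1 group and no control group. The genes, lists and motifs were chosen with earlier results of these data known. All 8 genes are named, other pathway genes where a replicate 2, pooled or thresholded peak lay in the window, as are the 5 genes most like each member with a thresholded peak. Other genes without such a peak (fog-2, fox-1, ceh-39, sea-2, dpy-26, dpy-30, capg-1) were named after their values were seen. The labels call the replicates biological, but do not say how separately they were raised.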

Additional observations from a re-analysis of the deposited data

How the results depend on the processing

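Of 113 values under alternative settings, 67 stayed within the limits set for a change and 46 moved. The number of the 8 genes with a replicate 2, pooled or thresholded peak, 2, 1 and 1, was 0 in each list with 1000 bp upstream, with 2000 bp upstream and with the gene body alone. It was 1 in replicate 2 when the window ended at the nearest upstream protein-coding gene. With the 2036 strongest replicate 1 peaks, 2 of the 8 genes and 4 pathway genes had a replicate 1 peak, in place of 8 and 24. The share of replicate 1 peaks at X genes, 41.5%, was 76.9% in upstream sequence alone, 25% in bodies alone and 100% (2 of 2 peaks) with the 2036 strongest peaks. Pathway genes with a pooled peak, 5 in all, numbered 3 with 1000 bp, with upstream sequence alone and with the stronger 50% of each list, and 2 with bodies alone. Those with a thresholded peak, 2 in all, numbered 1 under each of these. They also numbered 1 with 2000 bp and with the window ended at the nearest upstream protein-coding gene. With upstream sequence alone, 3 pathway genes had a replicate 2 peak in place of 6. These counts fell with the smaller windows and lists, while the share at X genes went up under some settings and down under others. Why the share moved was not tested.

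Of the 2 replicate 1 peaks found in replicate 2, 1 was left with a reciprocal overlap of 50%, with summits within 200 bp and with the 2036 strongest peaks. With 1 replicate left out, agreement cannot be counted. The values then are only the peaks of the other list, 2 without replicate 1 and 41 without replicate 2. They are counted among the values above, the first as unchanged and the second as moved. AAGTTT lay at 11 of the 41 summits within 100 bp, at 23 within 200 bp and in 19 whole peaks. No paired analysis was possible because both replicates belong to 1 group. Depth is unknown, so peaks missing from replicate 2 cannot be told apart from peaks below its detection.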

Other observations

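At 2 other pathway genes, chosen after their values were seen, replicate 1 had peaks stronger than the best peak of sex-1 (rank 1781) that overlapped no replicate 2 peak. The sup-26 peak had rank 70, 1994 bp upstream of the 5′ end, and the tra-1 peak had rank 729, in an intron 11083 bp from the 5′ end. Over all replicate 1 peaks, 33% of the 100 strongest and 7.78% of the rest of the 1000 strongest were found in replicate 2, so most peaks of such ranks have no counterpart there.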
